A study of Homo sapiens with 22 samples.

Results

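In PC3 cells, 812 of the 24038 regions bound by FOXA2 under vehicle (3.38%) also overlapped a JUN region and a FOSL1 region and had no FOXA2 region in NCI-H660 cells. They are called triple regions here. An overlap of 1 bp was enough, so the members were chosen by the measured presence of 4 lists: FOXA2 under vehicle, JUN and FOSL1 under a non-targeting siRNA (siNC), and FOXA2 in vehicle-treated NCI-H660 cells. Of the 24038 regions, 10652 overlapped JUN, 1741 overlapped FOSL1 and 1565 overlapped both. From these, 753 (48.1%) were left out because they overlapped FOXA2 in NCI-H660. The triple regions overlapped 815 of the 3843 FOSL1 regions (21.2%) and 812 of the 23890 JUN regions (3.40%).

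The series profiled 3 prostate cancer lines: PC3, which lacks androgen receptor signalling and is not neuroendocrine, NCI-H660, which is neuroendocrine, and LNCaP, which depends on the androgen receptor. ChIP-seq and ATAC-seq gave 22 region lists in 21 groups. PC3 FOXA2 was mapped under vehicle, after ORY-1001 at 10 µM for 4 h and after C12 at 0.5 µM for 4 h, both inhibitors of the histone demethylase LSD1, and in 2 other FOXA2 ChIPs under vehicle. PC3 JUN and FOSL1 were each mapped under siNC and under an siRNA against FOXA2 (siFOXA2). Vehicle-treated PC3 cells gave H3K27ac and ATAC lists. NCI-H660 cells gave FOXA2 under vehicle and ORY-1001 (10 µM, 4 h), JUN under siNC and siFOXA2, and H3K4me2 and ATAC under vehicle. LNCaP cells gave JUN under siNC and under siFOXA1, JUN and FOXA2 in cells that stably expressed FOXA2 (FOXA2OE), and JUN in cells expressing the FOXA2K265R mutant. Apart from the 2 other FOXA2 ChIPs each group had 1 list, so no difference between conditions could be set against a spread between replicates. Intervals are 95% intervals (Wilson for a share, Newcombe for a difference of shares). They cover counting error over regions only, and regions of 1 library are not replicates.

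FOXA2 is a forkhead pioneer factor that can bind its sites in closed chromatin and is expressed in endoderm-derived tissues and in prostate cancers that have lost androgen receptor signalling. AP-1 is a dimer of JUN and FOS family proteins, one of which is FOSL1 (FRA-1), and recognises the word TGACTCA. In prostate and other epithelial cancers AP-1 is known for its role at enhancers of mesenchymal, invasive and stress-response genes.

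The following windows, 201 bases centred on the FOXA2 region, are given on the + strand of hg19. Capitals mark matches to the AP-1 word TGACTCA (or TGAGTCA on the other strand) and to forkhead words, which are TGTTTAC with A also allowed in the second place, G in the sixth and T in the last. Both strands were searched. The first 3 are shown because they lie in members with very high vehicle FOXA2 scores.
NRP1 region, chr10:33445077-33445277: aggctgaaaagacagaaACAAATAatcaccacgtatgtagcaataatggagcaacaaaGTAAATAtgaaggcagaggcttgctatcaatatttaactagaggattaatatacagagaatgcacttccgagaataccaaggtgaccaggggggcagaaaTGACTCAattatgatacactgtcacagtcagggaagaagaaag
KCNMA1 region, chr10:78923784-78923984: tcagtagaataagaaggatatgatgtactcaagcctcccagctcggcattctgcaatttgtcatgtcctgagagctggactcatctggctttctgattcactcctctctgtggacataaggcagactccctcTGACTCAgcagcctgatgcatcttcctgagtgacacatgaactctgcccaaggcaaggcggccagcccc
ANKRD30A region, chr10:36827939-36828139: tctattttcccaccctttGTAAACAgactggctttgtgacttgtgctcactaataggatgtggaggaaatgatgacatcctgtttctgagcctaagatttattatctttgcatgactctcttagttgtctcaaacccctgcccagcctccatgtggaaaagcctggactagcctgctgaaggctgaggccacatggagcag

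All 3 showed FOXA2 in both inhibitor lists and JUN after siFOXA2, and between them they held both motifs, the AP-1 word alone and the forkhead word alone. The next 3 windows show the member in NDC80, a gene that the study examined, and a member for each of the most frequent spacings of an AP-1 and a forkhead match.
NDC80 region, chr18:2592839-2593039: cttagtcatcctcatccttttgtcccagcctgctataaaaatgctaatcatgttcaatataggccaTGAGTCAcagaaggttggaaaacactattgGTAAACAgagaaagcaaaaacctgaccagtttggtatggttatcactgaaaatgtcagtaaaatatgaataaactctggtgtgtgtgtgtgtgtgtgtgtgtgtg
SLC4A7 region, chr3:27575622-27575822: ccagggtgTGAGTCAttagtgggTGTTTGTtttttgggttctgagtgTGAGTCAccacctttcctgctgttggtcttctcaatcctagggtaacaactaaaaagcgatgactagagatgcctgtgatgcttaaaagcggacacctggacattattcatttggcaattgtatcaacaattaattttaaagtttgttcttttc
MIX23 region, chr3:122084558-122084758: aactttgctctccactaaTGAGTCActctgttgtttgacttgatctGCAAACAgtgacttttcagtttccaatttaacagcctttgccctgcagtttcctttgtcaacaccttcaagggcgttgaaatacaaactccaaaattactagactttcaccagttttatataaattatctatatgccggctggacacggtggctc

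The score of a region is the deposited peak score, read as 10 times −log10 of the q-value, and it ranks regions within a list. The values that the rule used were as follows. The vehicle FOXA2 score of the triple regions ran from 13 through a median of 198 to 12604. The siNC JUN score ran from 25 through 562.5 to 6009, and the siNC FOSL1 score from 14 through 84 to 731. Regions were 226 to 2202 bp long with a median of 365 bp. In all 812, the JUN and the FOSL1 region also overlapped each other. The FOXA2 centre lay at a median of 42 bp from the JUN centre and 51 bp from the FOSL1 centre.

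At the edge of the rule, the 5 smallest overlaps with FOSL1 were 3, 20, 22, 33 and 45 bp, the smallest at chr19:13278144-13278459, and the median overlap was 236 bp. Just outside were regions with JUN whose nearest FOSL1 region began 0, 16, 28, 90 and 97 bp away, the nearest at chr13:24442863-24443095. These were the 5 regions with JUN and without FOSL1 with a gap under 100 bp. Few members therefore lay close to the 1 bp limit of overlap with FOSL1. The score thresholds of the lists are a separate limit: with only regions scoring at least 50, the rule gave 643 members.

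The members fell into unequal sets by a list that the rule did not use. The LNCaP FOXA2OE FOXA2 list, which held exactly 2500 regions and only 1.64% with an AP-1 word, overlapped 106 members (13.1%), and 706 lay outside it. Of the 106, 21 (19.8%) and 23 (21.7%) overlapped the 2 other PC3 FOXA2 ChIPs, against 698 (98.9%) and 693 (98.2%) of the 706. The ATAC list held 68 of the 106 (64.2%) and 705 of the 706 (99.9%). The 106 thus stood apart in the other PC3 lists of FOXA2 and in the list of accessible regions.

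The same split held for other values. The AP-1 word lay in 3 of the 106 windows (2.83%) and in 429 of the 706 (60.8%), and the median JUN score was 77.5 against 615.5. In contrast, the 106 were often found in other lines: 70 (66.0%) overlapped NCI-H660 siNC JUN, 58 (54.7%) LNCaP siNC JUN and 68 (64.2%) NCI-H660 FOXA2 under ORY-1001, against 13.6%, 8.36% and 1.56% of the 706. Of the 10 members that were in at least 17 of the 22 lists, 8 belonged to the 106. The 753 regions that the NCI-H660 criterion removed were alike in this respect: 89.9% overlapped the FOXA2OE FOXA2 list, 5.84% held the AP-1 word, and 40.2% and 39.8% overlapped the other FOXA2 ChIPs. What the 106 regions are was not tested. Results below include them unless stated, and many are also given without them.

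**Figure D1:**
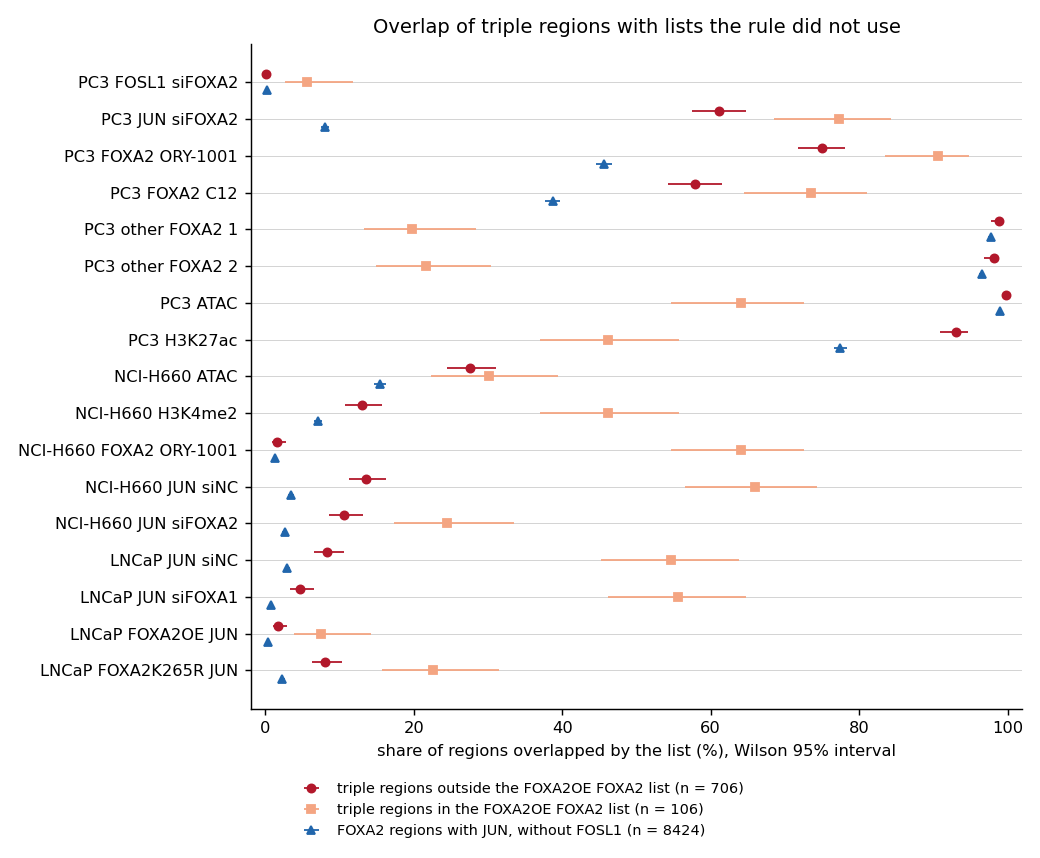
Share of regions (%, horizontal axis) overlapped by each list that the rule did not use, with 95% Wilson intervals, for the 706 triple regions outside the LNCaP FOXA2OE FOXA2 list, the 106 in it and 8424 FOXA2 regions with JUN and without FOSL1. The 106 were lower in PC3 ATAC (64.2% against 99.9%) and H3K27ac (46.2% against 93.1%) and higher in NCI-H660 JUN under siNC (66.0% against 13.6%).

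Most triple regions were accessible and acetylated in PC3 cells. ATAC overlapped 773 of 812 (95.2%), against 89.3% of all vehicle FOXA2 regions, and H3K27ac, a mark of active enhancers and promoters, overlapped 706 of 812 (86.9%). Of the 706 outside the FOXA2OE list, 657 overlapped H3K27ac (93.1%, 90.9 to 94.7), all of them accessible. The closest comparison was the 8424 vehicle FOXA2 regions that overlapped JUN but not FOSL1, again without NCI-H660 FOXA2, called JUN-only regions. H3K27ac overlapped 77.5% of these, 9.45 points fewer (6.81 to 11.8), and 47.8% of 9932 accessible FOXA2 regions with neither JUN nor FOSL1. ATAC overlapped 98.99% of JUN-only regions, so triple regions were the less often accessible (-3.79 points, -5.50 to -2.50). Outside the FOXA2OE list the ATAC shares were 99.9% and 99.5%, with an interval of the difference from -0.295 to 0.587 points.

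The H3K27ac difference outside the FOXA2OE list was 15.0 points (12.7 to 16.9). Triple regions also had far higher JUN scores than JUN-only regions (medians 562.5 and 159), whereas vehicle FOXA2 scores were alike (198 and 195). That likeness held for all members together: the 706 outside the FOXA2OE list had a higher median FOXA2 score of 233. When JUN-only regions were weighted to the JUN score deciles of the triple regions, the difference fell to 1.40 points, or 5.40 outside the FOXA2OE list. The H3K27ac regions themselves had a median score of 644 at triple regions and 333 at JUN-only regions. H3K27ac covered the very centre of the FOXA2 region in 431 of 812 (53.1%) and in 36.8% of JUN-only regions. The remaining overlapped members had the acetylated interval beside their centre. The median ATAC score was 2561 at triple regions, 1004 at JUN-only regions and 324 at the accessible regions without AP-1.

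FOXA2 was still called at most triple regions after the LSD1 inhibitors. After ORY-1001, 626 of 812 (77.1%) still overlapped a FOXA2 region, against 36.8% of all 24038 vehicle regions and 45.6% of JUN-only regions, a difference from the latter of 31.45 points (28.2 to 34.4). After C12, 487 (59.98%) did, against 29.6% of all vehicle regions and 38.7% of JUN-only regions, a difference of 21.3 points (17.7 to 24.8). The C12 list was shorter (8352 regions against 13732 for ORY-1001) and the doses differed, so the 2 compounds were not compared. The differences outside the FOXA2OE list were 29.4 (25.9 to 32.6) and 19.3 points (15.5 to 23.1).

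Both differences shrank once JUN score was matched. Over JUN score deciles the ORY-1001 difference was 16.96 points for all members and 11.5 outside the FOXA2OE list, and the C12 difference was 8.83 and 3.95 points. Matching on vehicle FOXA2 score instead left 30.2 points for ORY-1001 and 19.1 for C12, or 25.08 and 13.55 outside the FOXA2OE list. At the same FOXA2 score triple regions were therefore more often still called, and at the same JUN score the gap was smaller.

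By outcome, 459 triple regions (56.5%) kept FOXA2 under both inhibitors, 167 (20.6%) under ORY-1001 alone, 28 (3.45%) under C12 alone and 158 (19.5%) under neither. Among JUN-only regions 31.0% kept it under both and 46.7% under neither. Retention rose with the vehicle FOXA2 score. Among the 706, ORY-1001 kept 36 of 107 triple regions (33.6%) in score class 1, the lowest of 5, and 203 of 204 (99.5%) in class 5, against 14.7% and 80.04% of JUN-only regions. C12 kept 8.41% and 97.5% of the triple regions in the same classes, against 6.64% and 84.2%.

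**Figure D2:**
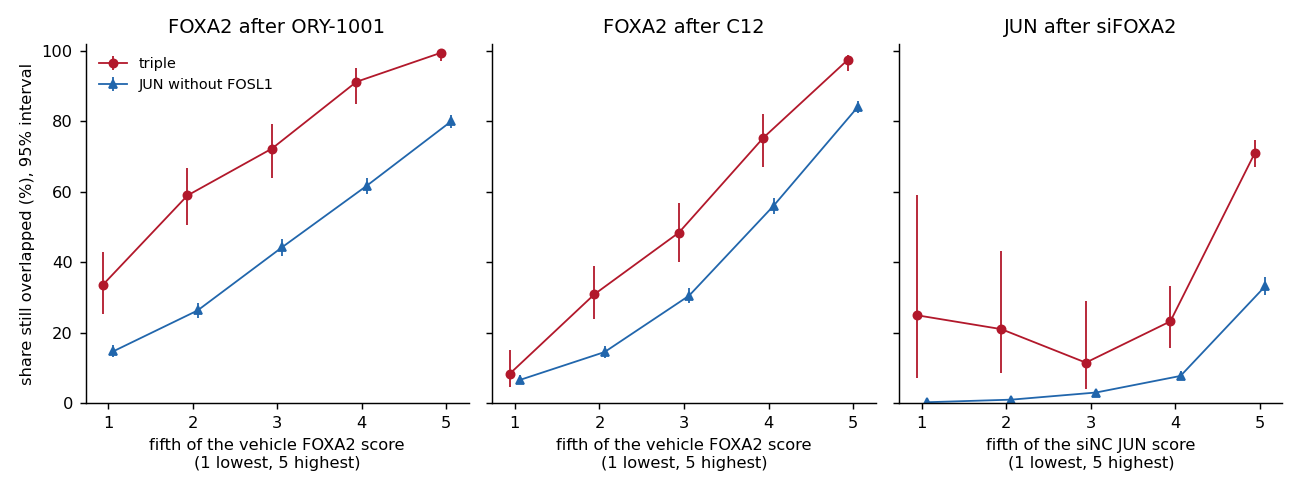
Share of regions still overlapped after treatment (%, vertical axis, 95% Wilson interval) by class of control score from 1, lowest, to 5, highest, for the triple regions outside the LNCaP FOXA2OE FOXA2 list and JUN-only regions outside it. FOXA2 after ORY-1001 rose from 33.6% to 99.5% in triple regions and from 14.7% to 80.04% in JUN-only regions, and JUN after siFOXA2 was 71.1% and 33.2% in the highest class. That class has no upper limit, so scores within it were not matched.

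Regions that stayed called nonetheless had lower scores. Outside the FOXA2OE list, the median score of the 530 members kept under ORY-1001 was 331.5 under vehicle and 229 after treatment, and 393 of them (74.2%) scored lower after treatment. For the 409 kept under C12 the medians were 434 and 198, with 387 (94.6%) lower. Over all vehicle FOXA2 regions that stayed called, 78.9% scored lower after ORY-1001 and 91.4% after C12. For JUN-only regions the shares were 86.5% and 96.96%. The fall was thus not particular to triple regions. Scores depend on sequencing depth, which is unknown, so the size of these changes cannot be read as occupancy.

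JUN remained called at most triple regions after FOXA2 knockdown. The siFOXA2 JUN list was the shorter, with 4081 regions against 23890 under siNC. Of 812, 514 (63.3%, 59.9 to 66.6) overlapped a JUN region under siFOXA2, against 18.3% of the 10652 vehicle FOXA2 regions with JUN and 8.01% of JUN-only regions. The difference from JUN-only regions was 55.3 points (51.9 to 58.6), and 53.5 (49.8 to 57.1) outside the FOXA2OE list. Since JUN scores differed between the classes, the shares were also compared at like scores. The difference was 34.2 points over deciles of JUN score and 29.7 over deciles of the triple regions' own scores, and 28.5 and 23.3 points without the FOXA2OE list.

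Triple regions had the higher share in every JUN score class. In the highest JUN score class, 403 of 567 triple regions outside the FOXA2OE list (71.1%) kept JUN, against 33.2% of JUN-only regions. Scores in this class ran from 350 to 6009 in triple and from 350 to 2262 in JUN-only regions, so they were not matched within it. In class 4, 20 of 86 triple regions (23.3%, 15.6 to 33.2) kept JUN, against 7.77% (6.604 to 9.115). In the 3 lowest classes, 2 of 8, 4 of 19 and 3 of 26 triple regions did, against 0.300%, 1.03% and 3.06%, numbers that give wide intervals for the triple regions. Among the 432 that kept JUN, the median JUN score was 775 under siNC and 148 under siFOXA2, and 426 (98.6%) scored lower. So did 97.9% of the JUN-only regions and 85.5% of all vehicle FOXA2 regions that kept JUN. Depth is unknown, so the size of this change cannot be read as occupancy. Triple regions outside the FOXA2OE list that kept JUN differed from those that lost it more in JUN score (medians 775 and 403.5). In vehicle FOXA2 score they differed less (medians 248 and 212.5).

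**Figure D3:**
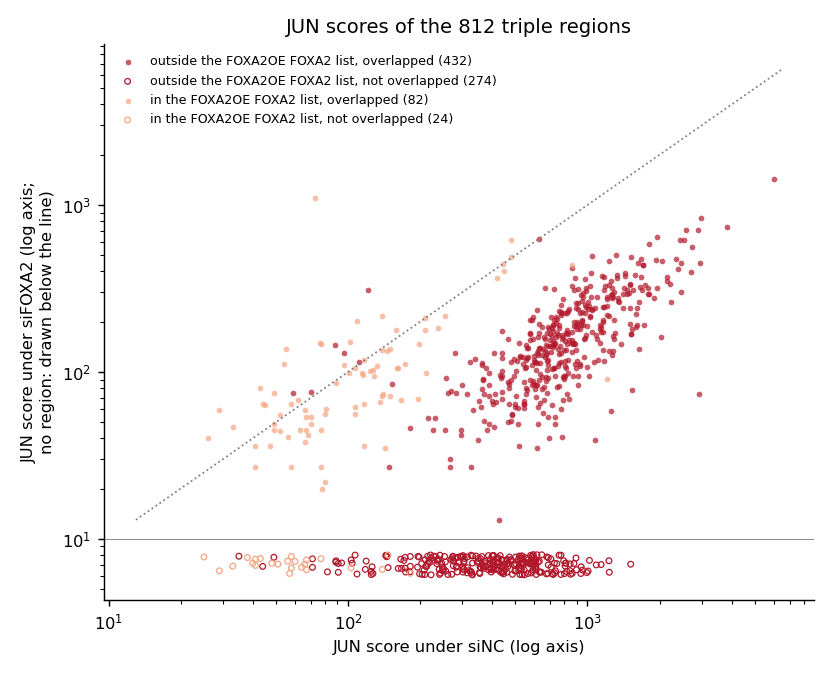
JUN peak score of each of the 812 triple regions under siNC (horizontal axis, log scale) and under siFOXA2 (vertical axis, log scale), with members lacking a JUN region after siFOXA2 drawn below the horizontal line at arbitrary heights and the dotted line marking equal scores. Of the 432 overlapped members outside the LNCaP FOXA2OE FOXA2 list 426 scored lower under siFOXA2, while the overlapped members of that list, 82 regions, lay nearer to the dotted line.

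The inhibitor and knockdown outcomes went partly together. JUN after siFOXA2 was found at 328 of the 459 members that kept FOXA2 under both inhibitors (71.5%) and at 88 of the 158 that kept it under neither (55.7%). Among the 706 the shares were 67.4% and 56.5%. The same direction was seen in JUN-only regions, at 12.3% and 4.35%. It was also seen in all vehicle FOXA2 regions, with or without siNC JUN, at 24.3% and 2.155%. The pattern was thus not particular to triple regions.

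FOSL1 was hardly called at triple regions after FOXA2 knockdown. Only 7 of 812 (0.862%, 0.418 to 1.77) overlapped a FOSL1 region under siFOXA2, against 14.5% of the 1741 vehicle FOXA2 regions with FOSL1. The 753 regions that the NCI-H660 criterion removed made up 232 of the 252 kept regions behind that 14.5%, with 30.8% of them kept, and adding them to the triple regions gave 15.3%. The low share thus rested on that criterion. Of the 7, 6 were in the FOXA2OE list, which left 1 of 706 (0.142%). The siFOXA2 FOSL1 list itself stood apart: it held 1538 regions with a median score of 17, against 3843 and 78 under siNC, and 2.41% of its regions held the AP-1 word, against 1345 of the 3843 siNC regions. The study also reported that FOXA2 silencing strongly lowered FOSL1 mRNA and protein in PC3 cells. With such a list, a loss of FOSL1 at triple regions, less FOSL1 protein in the cells and a weaker library cannot be told apart.

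In lists of the other lines triple regions were overlapped in a minority, yet more often than JUN-only regions. NCI-H660 ATAC overlapped 227 of 812 (28.0%), against 15.5% of JUN-only regions, a difference of 12.5 points (9.42 to 15.8), and 12.2 (8.96 to 15.7) outside the FOXA2OE list. Over all vehicle FOXA2 regions, including those with NCI-H660 FOXA2, the ATAC share was 22.6% and the siNC JUN share 8.395%. For NCI-H660 JUN under siNC the shares were 20.4% and 3.44%, and outside the FOXA2OE list 96 of the 706 (13.6%) and 3.05%, a difference of 10.6 points (8.19 to 13.3). The rule removed every region with FOXA2 in NCI-H660 under vehicle, from both classes, which bears on all NCI-H660 shares.

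NCI-H660 JUN under siFOXA2 overlapped 75 of the 706 (10.6%), against 2.48% of JUN-only regions outside the list and 5.29% of all vehicle FOXA2 regions. NCI-H660 H3K4me2 overlapped 92 (13.03%), against 6.92% and 14.2%. The triple regions thus stood above the JUN-only regions and not above all vehicle regions. All vehicle regions include those with NCI-H660 FOXA2, so the sets are unlike. H3K4me2 overlapped 85.8% of the 753 regions that the NCI-H660 criterion removed. The NCI-H660 JUN lists held 18401 regions under siNC and 59452 under siFOXA2, so their shares do not compare like numbers.

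In LNCaP, siNC JUN overlapped 59 of the 706 (8.36%), against 2.65% of JUN-only regions outside the list, a difference of 5.71 points (3.846 to 8.002). JUN under siFOXA1 overlapped 33 (4.67%), against 0.540%. JUN in FOXA2OE cells overlapped 12 (1.70%), against 0.384%, and JUN in FOXA2K265R cells 57 (8.07%), against 2.18%. Each LNCaP JUN list thus covered a larger share of triple than of JUN-only regions. Over all vehicle FOXA2 regions the shares were 5.25% for siNC, 4.18% for siFOXA1, 1.38% for FOXA2OE and 4.13% for FOXA2K265R. The siFOXA1 and FOXA2OE shares of the 706 were near those of all vehicle regions, but the sets are unlike. All vehicle regions include those with NCI-H660 FOXA2 and those of the FOXA2OE list, which the 706 leave out. Of the 753 regions that the NCI-H660 criterion removed, 84.1% overlapped the siFOXA1 list and 19.8% the FOXA2OE JUN list. The siNC and siFOXA1 lists shared a processing folder, and the FOXA2OE and FOXA2K265R lists each had another, so that across these 3 folders FOXA2 construct and folder cannot be told apart. The AP-1 word lay in 25.4%, 15.3%, 2.39% and 4.09% of the regions of the 4 lists, in that order.

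Promoter accessibility separated the lines poorly: of 7 neuroendocrine marker genes 6 were accessible in PC3 and 7 in NCI-H660, CHGA being the exception, and 7 of 7 mesenchymal and basal markers were accessible in both. Of 5 luminal markers 4 were accessible in PC3 and 3 in NCI-H660, and KLK3 was accessible in neither.

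The sequences of triple regions held the AP-1 word more often and forkhead words less often than JUN-only regions, but the AP-1 direction depended on leaving out NCI-H660 FOXA2 regions: with them kept in, the difference was -7.07 points (-9.51 to -4.54). The AP-1 word lay within 100 bp of the centre in 432 of 812 (53.2%), against 38.2% of JUN-only regions, 26.4% of all vehicle FOXA2 regions and 16.9% of all PC3 ATAC regions. The difference from JUN-only regions was 15.0 points (11.4 to 18.6), and 22.2 (18.4 to 25.9) outside the FOXA2OE list. Weighting to equal GC content, whose median was 44.3% and 38.3%, left 12.4 points. Weighting to equal JUN score left 7.82 points, or 13.2 outside the FOXA2OE list.

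Forkhead words went the other way. They lay in 415 triple regions (51.1%), against 73.8% of JUN-only regions, 83.8% of the accessible regions without AP-1, 77.3% of all vehicle FOXA2 regions and 29.8% of all PC3 ATAC regions. The difference from JUN-only regions was -22.7 points (-26.2 to -19.1), -18.7 (-22.5 to -14.9) outside the FOXA2OE list and -17.5 at equal GC content. A match describes the letters in the window and is not a measured site.

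Outside the FOXA2OE list, 240 triple regions (34.0%) held both words, 189 (26.8%) the AP-1 word alone, 152 (21.5%) a forkhead word alone and 125 (17.7%) neither. Among JUN-only regions outside the list 27.5%, 11.0%, 46.7% and 14.8% did. Triple regions thus more often held the AP-1 word alone and less often a forkhead word alone. At least 2 AP-1 words were found in 111 triple regions (13.7%), against 3.99% of JUN-only regions, and at least 2 forkhead words in 14.4% against 32.8%.

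**Figure D4:**
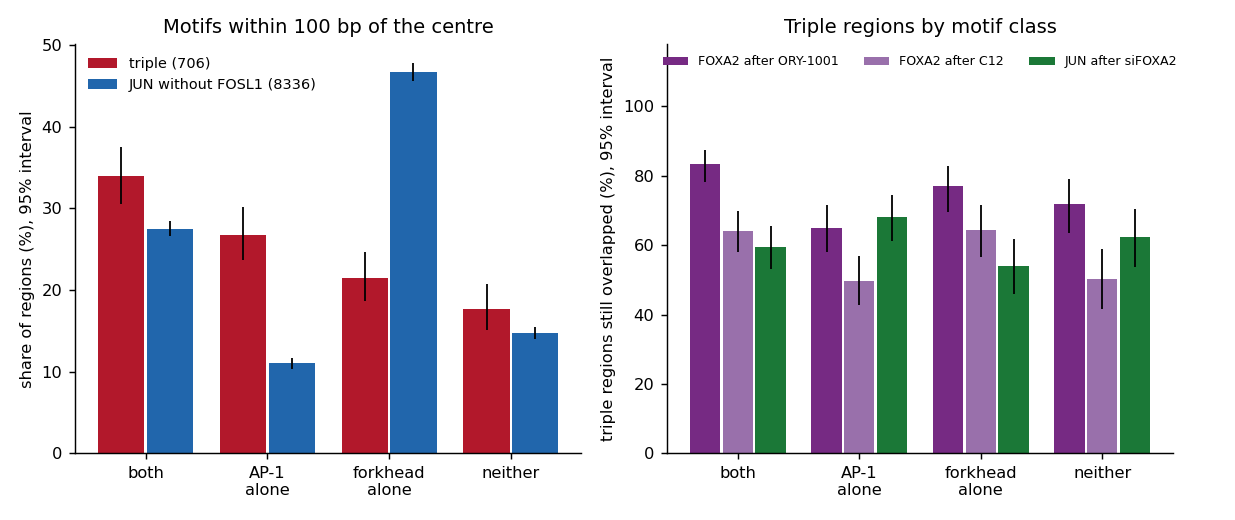
Left, share of regions (%, 95% Wilson interval) with the AP-1 word, a forkhead word, both or neither within 100 bp of the centre, for triple and JUN-only regions outside the LNCaP FOXA2OE FOXA2 list, with the AP-1 word alone in 26.8% and 11.0%. Right, share of those triple regions of each class (%, 95% Wilson interval) that kept FOXA2 after ORY-1001 or C12 or JUN after siFOXA2, all bars starting at 0.

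The 2 motifs lay near different centres. Outside the FOXA2OE list, the nearest AP-1 word was at a median of 26 bp from the JUN centre, 27 bp from the FOSL1 centre and 34 bp from the FOXA2 centre. The nearest forkhead word was at 29 bp from the FOXA2 centre, 55.5 bp from the JUN centre and 65.5 bp from the FOSL1 centre. Since windows were centred on FOXA2, these distances describe order and carry no test. In the 25 bp bin beside the centre, 12.9% of the 706 held an AP-1 word and 12.7% a forkhead word, against 7.51% and 20.2% of JUN-only regions.

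**Figure D5:**
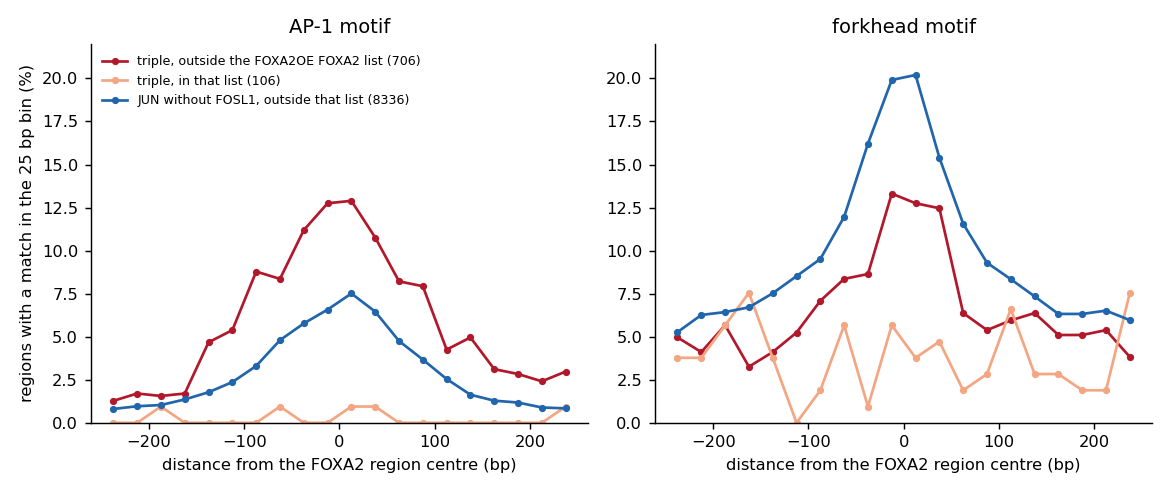
Share of regions with a match in each 25 bp bin (%, vertical axis) by distance from the FOXA2 region centre (bp, horizontal axis), for the AP-1 word and the forkhead words, in triple regions outside and in the LNCaP FOXA2OE FOXA2 list and in JUN-only regions outside it. Both words peaked at the centre of the 706 triple regions outside the LNCaP FOXA2OE FOXA2 list, the AP-1 word at 12.9% and forkhead words at 13.3%.

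An AP-1 and a forkhead match within 30 bp of each other were present in 111 of the 240 triple regions with both (46.2%), against 48.9% of such JUN-only regions. The most frequent gaps, 8 bp with the AP-1 word before the forkhead word as read on the forkhead strand and 21 bp with it after, were each found in 6 regions, which is too few to call a preferred spacing. The SLC4A7 and MIX23 windows printed above show one of each.

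Within the 706, motif content went with outcome as follows, in 10 comparisons of 2 motifs with 5 lists. For NCI-H660 ATAC and LNCaP siNC JUN, the intervals of the differences included 0 for both motifs. Forkhead-containing regions kept FOXA2 under ORY-1001 in 80.9%, against 67.8% of the others, a difference of 13.03 points (6.57 to 19.5), which was 1.72 points at equal FOXA2 score. Under C12 the shares were 64.3% and 50%, a difference of 14.3 points that became -0.992 at equal FOXA2 score. Both gaps were thus small at equal FOXA2 score. Vehicle FOXA2 scores had medians of 327.5 with both words, 287.5 with forkhead alone, 172 with AP-1 alone and 160 with neither.

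After siFOXA2, by contrast, JUN was kept at 57.4% of forkhead-containing regions and 65.9% of the others, a difference of -8.53 points (-15.6 to -1.30) that was -8.57 at equal JUN score. For the AP-1 word the intervals included 0: the differences were 0.562 points for ORY-1001 (-5.84 to 7.22), -0.314 for C12 (-7.68 to 7.14) and 5.64 for JUN (-1.70 to 13). By the number of AP-1 words, JUN was kept at 57.8% of regions with 0, 61.0% with 1 and 70.3% with at least 2, and the median siNC JUN scores were 563, 626 and 714. JUN score and the number of words moved together here.

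The larger part of the members lay outside protein-coding genes. Of 812, 461 (56.8%) were intergenic with respect to protein-coding genes, 300 (36.9%) intronic, 29 (3.57%) within 1 kb of a start, 16 in coding exons and 6 in UTRs. Of the members outside the FOXA2OE list, 375 of 706 (53.1%) were intergenic. Among JUN-only regions 50.5% were intergenic and 42.9% intronic. For all 812 members the nearest start was at a median of 51415 bp, against 57583.5 bp for JUN-only and 56692 bp for all vehicle regions. Within 50 kb of a triple region lay the starts of 562 of 19794 protein-coding genes (2.84%), against 9330 (47.1%) for any vehicle FOXA2 region.

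The highest FOXA2 score among the members was at chr10:33444862-33445491, 29406 bp from the start of NRP1, which encodes a co-receptor for VEGF and semaphorins. It scored 12604 for FOXA2 under vehicle, 2637 after ORY-1001 and 2624 after C12. Its JUN score was 2934 under siNC and 74 under siFOXA2. Both factors thus stayed called there at much lower scores. Of 14 genes of the neuropilin and VEGF list, NRP1 was the only one with members within 50 kb, and it had 4.

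Another member with a high FOXA2 score was chr10:78923677-78924090, in an intron of KCNMA1, which encodes a calcium-activated potassium channel. It had the highest JUN score of all members, 6009 under siNC and 1430 under siFOXA2. Its FOXA2 score was 3302 under vehicle, 3725 after ORY-1001 and 2094 after C12, so it did not score lower after ORY-1001.

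Other members with high FOXA2 scores were chr10:36827719-36828359 at 2508, 586487 bp from ANKRD30A, and chr3:187980788-187981221 at 2410 in an intron of LPP, a focal adhesion gene. A member at chr10:54623996-54624496, 91702 bp from MBL2, scored 2339, and one at chr20:15683783-15684279 in MACROD2 scored 2154. All 4 kept FOXA2 under both inhibitors and JUN after siFOXA2. By JUN score, chr12:28176549-28176837, 51027 bp from PTHLH, which encodes parathyroid hormone-related protein, followed with 3815 under siNC and 743 under siFOXA2. A member in an intron of EHD1, chr11:64622490-64622780, had 2952 and 449.

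Members that lost FOXA2 under both inhibitors could still have high JUN scores. The highest FOXA2 score among them, 659, was at chr17:61352573-61352996 in an intron of TANC2, where JUN scored 1573 under siNC and 382 under siFOXA2. At another member, chr2:189163845-189164124 in GULP1, which was lost under ORY-1001 alone, FOXA2 scored 402 under vehicle, was not called after ORY-1001 and scored 250 after C12.

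The gene lists were chosen with earlier results of these data known, and their counts carry no test. Of 217 listed genes, 14 (6.45%) had a triple region within 50 kb, against 2.84% of all protein-coding genes, and 148 (68.2%) had any vehicle FOXA2 region, against 47.1%. The lists were thus richer in FOXA2 regions of any kind too. Members lay near genes of 8 of the 13 lists. None lay near the 19 AP-1 subunit genes, FOSL1 included, the 14 FOXA and partner genes, the 11 basal, the 14 luminal or the 14 neuroendocrine genes.

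Of 18 genes of the plasminogen system and proteases, 3 had members: PLAU, MMP13 and TIMP2. PLAU encodes urokinase, and its promoter member chr10:75668896-75669195 scored 97 for FOXA2 under vehicle, 95 after ORY-1001 and was not called after C12, with JUN at 1323 under siNC and 383 under siFOXA2. A second member 2314 bp from the PLAU start, chr10:75666490-75666752, scored 109 for FOXA2 and 745 for JUN and kept neither. The member at the promoter of MMP13, a collagenase, scored 434 under vehicle, 577 after ORY-1001 and 363 after C12, and JUN was not called after siFOXA2.

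Of 20 genes of EGFR and MET signalling, EGFR and ERRFI1 had members. EGFR, a receptor tyrosine kinase, had 3, and at the intronic chr7:55200506-55200930 FOXA2 scored 507 under vehicle, 320 after ORY-1001 and 241 after C12, with JUN at 1270 under siNC and 318 under siFOXA2. The other EGFR members scored 72 and 40 for FOXA2 and lost JUN. Of 21 genes of mesenchymal transition, TGFBR2, a TGF-β receptor, and THBS1, a matrix glycoprotein, had members. The TGFBR2 promoter member chr3:30647558-30648038 scored 544 under vehicle, 590 after ORY-1001 and 434 after C12, with JUN at 1039 and 392, and was accessible in NCI-H660 as well.

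Of 24 genes of integrins, laminins and adhesion, ITGB1, ITGB5 and PXN had members. The intronic ITGB1 member chr10:33294661-33295023 scored 117 for FOXA2 under vehicle, 80 after ORY-1001 and was not called after C12, with JUN at 863 under siNC and 329 under siFOXA2. ITGB5 had a promoter member with a FOXA2 score of 621. Among 17 YAP and TEAD pathway genes only CCN1, a matricellular target of YAP, had one, and among 20 inflammatory cytokine genes only IL6R, the interleukin-6 receptor. The IL6R member chr1:154390698-154391102 scored 1665 under vehicle, 1427 after ORY-1001 and 1001 after C12.

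Of 10 genes that the study tested or displayed, NDC80, a kinetochore gene, was the only one with a triple region within 50 kb. PTHLH, another of the 10, had a triple region just beyond that limit, 51027 bp from its start. The member chr18:2592784-2593093 lay in an NDC80 intron. Its FOXA2 score was 614 under vehicle, 142 after ORY-1001 and 164 after C12, and its JUN score was 626 under siNC and 170 under siFOXA2. CEP55 had 4 JUN-only regions and no triple region.

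Triple regions were for the most part single. Joined across gaps of at most 50 kb, they formed 743 clusters, of which 684 held 1 member, and 128 members (15.8%) lay in the 59 clusters of at least 2. The largest clusters held 4. One spanned chr10:36783306-36867624, with ANKRD30A as the nearest, though distant, protein-coding start, and FOXA2 was kept at 4 of 4 members under ORY-1001 and 3 of 4 under C12. The other, on chromosome Y, consisted of 4 members of the FOXA2OE list, with an AP-1 word in 0 and a forkhead word in 0 of them. What these regions are was not tested.

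The clusters of 3 members whose nearest start was HAS2, which encodes a hyaluronan synthase, or MYC kept FOXA2 at all 3 members under both inhibitors. JUN after siFOXA2 was found at 3 of 3 in the HAS2 cluster and 2 of 3 in the MYC cluster. Chromosome 8 held 80 members, 9.85% of them, against 6.50% of all vehicle FOXA2 regions, and chromosome 10 held 62, 7.64% against 5.16%. They were not alone in this: the shares were 4.56% and 2.61% on chromosome 17, 3.82% and 2.11% on 20, and 0.739% and 0.208% on Y. Chromosome 3 held the most members, 92 (11.3% against 9.48%). Other chromosomes held a smaller share, such as chromosome 4 with 3.325% against 6.45%.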

How the data were processed

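ChIP-seq and ATAC-seq region lists of PC3, NCI-H660 and LNCaP cells were used. Per the submitters' processing notes, the authors' tools were FastQC 0.11.9, BWA 0.7.17-r1188, SAMtools 1.9 and MACS2 2.1.4, with hg19. Controls, settings, pooling and ATAC read shifting are not given in the sources used here. The deposited score, a whole number, was read as 10 times −log10 of the q-value, an inference from a minimum of 13 in most lists. The minimum was 14 in one other FOXA2 ChIP, 30 in FOXA2OE JUN and 23 in FOXA2K265R JUN. LNCaP siNC JUN and FOXA2OE FOXA2 held no score. No list gave read numbers, so depth is unknown and only the counting error of regions could be stated.

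Groups came from the labels. One library is FOXA2K265R by title but FOXA2OE by another label, and was grouped by title. FOXA2 in DKO cells was not analysed here. Overlaps of at least 1 bp, Wilson and Newcombe intervals, GENCODE 44 (lifted to hg19) annotation and motif matches within 100 bp of the centre were computed in Python 3.11.15 with numpy 2.4.6, pandas 2.3.3 and pysam 0.24.0, and drawn with matplotlib 3.10.9. Overlap and interval code was tested on simulated data. The members and lists were chosen with earlier results of these data known.

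Named regions were, outside places overlapped in at least 17 of 22 lists, the 10 with the highest FOXA2 score, the 5 with the highest JUN and the 5 with the highest FOSL1 score, members within 50 kb of genes the study examined, the member with the highest FOXA2 score per outcome, the 10 clusters with most members, and members near listed genes. Some are not reported here. Region identifiers name a processing folder, treated as a possible batch. Each inhibitor or siRNA contrast lay within 1 folder, and the LNCaP JUN lists of FOXA2OE and FOXA2K265R cells lay in folders of their own.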

Additional observations from a re-analysis of the deposited data

How the results depend on the processing

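Of 114 alternative values, 65 stayed close to those reported, 48 moved and 1 reversed, and 20 of the 114 were chosen after seeing the data. No paired analysis was possible because each condition had 1 list and no test was run.

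With NCI-H660 FOXA2 regions kept in, the number was 1565, accessibility 91.3%, FOXA2 after ORY-1001 85.9%, after C12 75.9%, JUN after siFOXA2 76.0%, FOSL1 after siFOXA2 15.3%, NCI-H660 accessibility 49.3%, the AP-1 word 30.4% and forkhead words 42.9%. The differences from JUN-only regions were then 37.8 points for ORY-1001, 34.5 for C12, 67.7 for JUN and -7.07 for the AP-1 word, which reversed. Without the regions of the FOXA2OE FOXA2 list, added after seeing the data, accessibility was 99.9%, H3K27ac 93.1%, FOSL1 after siFOXA2 0.142%, the AP-1 word 60.8%, forkhead words 55.5%, and the differences were 15.0 points for H3K27ac and 22.2 for the AP-1 word.

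With other FOXA2 ChIP 1 in place of the vehicle list, accessibility was 99.6%, H3K27ac 94.6%, JUN after siFOXA2 58.4%, FOSL1 after siFOXA2 0.334%, the AP-1 word 56.7% and forkhead words 46.0%. With ChIP 2, accessibility was 99.5%, H3K27ac 94.4%, JUN 58.5%, FOSL1 0.366% and forkhead words 47.4%. Over siNC JUN score deciles the differences were 16.96 points for ORY-1001, 8.83 for C12, 34.2 for JUN and 1.40 for H3K27ac. Over classes of the triple regions' own JUN score, added after seeing the data, they were 16.3, 9.14, 29.7 and 1.22.

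Equal numbers of top-scoring regions gave 87.8% for ORY-1001, 85.5% for C12 and 71.3% for JUN. An overlap of at least 50% of the shorter region gave 52.4% for H3K27ac and a difference of 15.0 points. A window of 250 bp gave 68.3% for the AP-1 word and 71.3% for forkhead words, wider AP-1 words gave 61.8% and a difference of 8.89 points, and 2 forkhead words gave 20.9%. List length, score thresholds and unknown depth limit every share.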

Other observations

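Other short words were searched in the same 201 bp windows, both strands, with earlier results known and with no test. The E-box word CAGCTG lay in 11.7% of triple regions, 7.78% of JUN-only regions and 12.8% of PC3 ATAC regions. The GATA word AGATAA lay in 8.74%, 13.9% and 8.20%, and the HNF1 word GTTAAT in 5.17%, 9.96% and 5.56%. The TEAD word CATTCC lay in 16.3%, 15.3% and 13.3%, the RUNX word TGTGGT in 16.3%, 16.9% and 15.8%, and the SOX word ACAAAG in 21.7%, 22.9% and 15.4%. The TEAD shares outside the FOXA2OE list were 14.3% of triple and 15.2% of JUN-only regions.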
